A study of Mus musculus with 34 samples.

Results

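The proteasome genes studied here are 49 mouse genes, chosen by name from a list drawn up with earlier results of these data known: the 7 alpha and 7 beta subunits of the constitutive 20S core, 18 subunits of the 19S cap, 8 assembly chaperones, 5 activators or inhibitors of the core, the transcription factor Nfe2l1, and the p97 unfoldase Vcp with its cofactors Ufd1 and Nploc4. The cap subunit Sem1 is not in the list. Below, the 32 subunits of the 26S, the 18 of the cap and the 8 of the lid are those in the list. All 49 were found among the 55487 gene IDs of each deposited table, and all 49 passed the filter on low values that left 13285 genes of the first table and 13388 of the second one. Messenger RNA was measured by sequencing of polyA RNA from liver. The mice were males aged 3 months, and each received an intraperitoneal injection. In the first table, 5 liver libraries are from PiZ p50KO mice given PBS, labelled as PiZ mice without NF-kB p50, 5 are from PiZ mice given PBS, which have a human transgene that encodes alpha-1 antitrypsin Z, 6 are from wild-type (WT) mice 2 hours after TNFa, and 6 are from WT mice given PBS. In the second table, 6 libraries are from WT mice 24 hours after tunicamycin, an inhibitor of N-linked glycosylation, and 6 from WT mice given DMSO. The 2 tables were deposited separately and were treated as separate batches, and no library of one was compared with a library of the other.

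The 26S proteasome is the machine that destroys ubiquitin-tagged proteins of the cytosol and nucleus. Its core is a barrel of alpha rings, which gate entry, and beta rings, which hold the cutting sites. The cap binds the ubiquitin chain, removes it and unfolds the substrate with a ring of ATPases. Misfolded proteins of the endoplasmic reticulum (ER) are pulled back to the cytosol by p97 with Ufd1 and Nploc4, and are then degraded by the proteasome. Nfe2l1 is made in the ER membrane, is itself extracted by p97, and, when proteasome activity falls, is cut free and activates proteasome genes.

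Levels are given as log2 CPM (the log2 of a gene's reads after scaling to the depth of its library). The deposited values were taken to carry no scaling between libraries beyond depth. Each library was therefore shifted to the same median over the genes tested, and values so treated are called shifted log2 CPM. A gene was called higher or lower where limma, fitted over all genes of a table and two-sided, gave a Benjamini-Hochberg adjusted p below 0.05. Calls use the shifted values unless stated, while sums of cell type markers use values as deposited. The shift matters for these genes. As deposited, the median gene stood 0.40 higher in PiZ than in WT and 0.38 higher after tunicamycin than after DMSO on the log2 scale, and 0.22 lower in PiZ p50KO than in PiZ, so counts from the values as deposited are printed beside the main ones.

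Depth was 35500000 to 54000000 reads per library (first table) and 34300000 to 47800000 reads (second table), with 1 exception. WT PBS 2 held 10200000 reads, 72.2% of them in protein-coding genes against 97.3% to 97.7% in the rest of its table. Its Alb level was 12.22 log2 CPM as deposited, against 15.43 to 16.49 in the rest, and its mean over the 32 subunits of the 26S was 5.20, while the 5 remaining WT PBS libraries had 6.22 to 6.35. It was kept out of the fit, which leaves 5 WT PBS libraries, and results with it are given beside the calls. All 6 hepatocyte markers had reads in every group. The share of mitochondrial reads was over 19% in 4 libraries, PiZ p50KO 3 at 19.4%, PiZ 4 at 19.9%, WT PBS 4 at 20.3% and DMSO 2 at 23.4%.

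Promoter windows were available for 42 of the 49 genes, 49 windows in all, from 250 bases before to 50 bases after the start of the gene, in RefSeq on GRCm38.p6 and in the sense of the gene. The letters TGACNNNGC, the core of the antioxidant response element to which Nfe2l1 and its relative Nfe2l2 bind, were found on either strand in 8 of the 49 windows (16.3%), beside 12.4% of all 32851 windows. CCAAT was found in 36.7% of these windows, beside 37.4% of all. The core of the interferon-stimulated response element, GAAA and GAAA with any 2 bases between, was found in 10.2%, beside 3.44% of all. A match is a run of letters in the window and no evidence of binding. Of the 15 genes that rose after tunicamycin, 14 had a window, and 3 of these (Vcp, Psmb5 and Psmb6) held TGACNNNGC while 11 did not. Adrm1, which fell, and Psmc6, Psmd12, Psmd9 and Psme4, which were not called, held it too. The interferon-stimulated core was found in Psme1, which fell, in Psmg4, which rose, and in Psmb3, Psmd4 and Psmd9, which were not called. The 4 windows below were picked, with these values seen, to show the motifs in genes whose mRNA changed after tunicamycin. Capitals mark TGACNNNGC in Vcp (chr4:43000458-43000757, minus strand), Psmb5 (chr14:54617946-54618245, minus strand) and Psmb6 (chr11:70525107-70525406, plus strand), 114, 47 and 9 bases before the start, and the interferon-stimulated core read on the opposite strand in Psme1 (chr14:55578244-55578543, plus strand), 9 bases after it.
Vcp: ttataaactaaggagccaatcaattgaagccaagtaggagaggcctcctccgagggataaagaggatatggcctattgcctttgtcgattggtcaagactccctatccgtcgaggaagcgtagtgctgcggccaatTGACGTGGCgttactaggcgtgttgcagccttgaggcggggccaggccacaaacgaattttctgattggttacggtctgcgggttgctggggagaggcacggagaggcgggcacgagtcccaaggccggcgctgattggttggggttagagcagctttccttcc
Psmb5: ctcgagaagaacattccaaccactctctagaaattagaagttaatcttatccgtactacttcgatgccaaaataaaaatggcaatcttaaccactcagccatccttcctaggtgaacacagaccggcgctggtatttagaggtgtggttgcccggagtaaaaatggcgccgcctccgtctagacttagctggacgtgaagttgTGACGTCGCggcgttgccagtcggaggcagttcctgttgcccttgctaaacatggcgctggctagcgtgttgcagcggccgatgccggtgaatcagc
Psmb6: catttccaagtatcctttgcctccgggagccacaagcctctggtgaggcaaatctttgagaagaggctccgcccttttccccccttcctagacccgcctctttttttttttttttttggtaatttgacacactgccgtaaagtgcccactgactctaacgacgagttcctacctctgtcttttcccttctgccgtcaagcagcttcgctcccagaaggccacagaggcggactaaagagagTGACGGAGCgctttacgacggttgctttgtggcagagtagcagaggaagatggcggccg
Psme1: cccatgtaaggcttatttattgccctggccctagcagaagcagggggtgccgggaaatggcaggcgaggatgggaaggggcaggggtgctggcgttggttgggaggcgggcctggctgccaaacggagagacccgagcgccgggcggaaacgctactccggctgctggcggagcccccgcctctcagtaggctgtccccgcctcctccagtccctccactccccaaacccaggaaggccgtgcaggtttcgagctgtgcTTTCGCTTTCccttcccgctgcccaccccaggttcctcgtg
Of the other genes with per-library values below, Adrm1 holds TGACNNNGC and CCAAT, Psmd9 holds TGACNNNGC and the interferon-stimulated core, and Psmd10 holds CCAAT. The Nfe2l1 windows hold CCAAT except that at chr11:96829453-96829752, which holds none of the 3 motifs. The windows of Psmd8, Psmg3, Ufd1, Nploc4, Pomp, Psmd1 and Psmd5 hold none of the 3 either.

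Per length of exon, the 32 subunits of the 26S ranged from Psmd1 at 3.72 to Psmb6 at 6.75 in WT PBS liver, and the 8 chaperones from Psmg3 at 0.71 to Psmg4 at 4.15, with Psmg4, Psmg1 and Pomp inside the range of the subunits. On the scale of log2 CPM per kilobase of exon, the median was 5.23 over the 7 alpha subunits, 5.45 over the 7 beta subunits, 5.28 over the 6 ATPases, 4.79 over the 4 other base subunits and 4.43 over the 8 lid subunits. Psmb6, a catalytic beta subunit, stood first of the 49 at 6.75 ± 0.13 (SD, n = 5), followed by Psma6 at 6.18 ± 0.16 and Psmb4 at 6.10 ± 0.14, which did not differ beyond their spread. The 8 chaperones had a median of 2.51 and ended with Psmg3, the last of the 49 at 0.71 ± 0.28. Within the p97 complex, Vcp stood at 5.99 ± 0.14, Nploc4 at 4.24 ± 0.21 and Ufd1 at 2.25 ± 0.14. The same medians in DMSO liver were 4.81 for alpha, 4.90 for beta and 2.46 for the chaperones. Exon length here joins the exons of all annotated transcripts, which lowers the level of a gene with long rare exons.

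**Figure D1:**
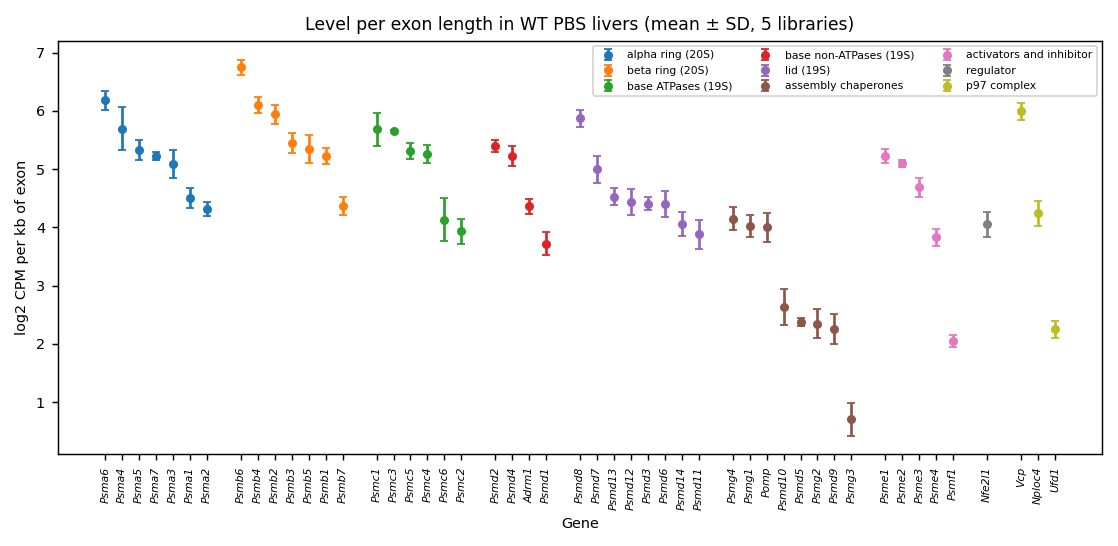
Level of the 49 genes per kilobase of exon (y axis, log2 CPM per kb) in WT PBS livers, grouped by role along the x axis; points are means and bars SD over 5 libraries. The core and cap subunits lie between 3.72 and 6.75, while 5 of the 8 assembly chaperones lie between 0.71 and 2.64.

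The genes called after tunicamycin included the p97 complex, 4 assembly chaperones and single subunits, 2 in the core and 6 in the cap. Of the 49 genes, 15 were higher and 3 lower than after DMSO. Among all genes tested, 24.1% were higher and 29.2% lower. Every tunicamycin library lay above every DMSO library for 10 of the 49 and below every one for 1, beside 12.3% and 12.8% of all genes. The values as deposited gave 36 higher and 1 lower, beside 45.3% and 13.5% of all genes. Of the 18 calls, 15 held under all 4 scalings tried, and those of Adrm1, Psmc4 and Psmb5 did not. Adrm1, Nploc4 and Psmb5 lost their calls without 9, 8 and 7 of the 12 libraries, each left out in turn. The median of the 49 was 0.10, against -0.07 for all genes, and 0.56 against 0.38 as deposited.

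All 3 genes of the p97 complex rose. Vcp, the ATPase that pulls proteins out of the ER membrane, had a lowest, median and highest shifted log2 CPM of 9.04, 9.32 and 9.81 after tunicamycin, against 8.26, 8.46 and 8.67 after DMSO. Every tunicamycin library lay above every DMSO library. Its log2 fold change was 0.88 ± 0.15 (SE), a 1.85-fold rise (limma adjusted p = 0.000332). Ufd1, which recognises ubiquitin chains for p97, had 5.38, 5.89 and 6.34 after tunicamycin, against 4.95, 5.08 and 5.16 after DMSO. The groups again did not overlap, and the log2 fold change was 0.80 ± 0.16 (limma adjusted p = 0.00129). Nploc4, the partner of Ufd1, had 6.70, 6.87 and 7.22 after tunicamycin, against 6.04, 6.60 and 6.83 after DMSO. These groups overlapped, and its log2 fold change of 0.37 ± 0.14 passed narrowly (limma adjusted p = 0.0421). Vcp shares 7.26% and Ufd1 4.82% of its exon bases with a gene on the opposite strand, and whether the counting used strand is not given in the sources used here. Among other genes called after tunicamycin, Psmd13 shares 10.1% with Sirt3 and Psme1 0.634% with Emc9, both opposite. On the same strand, Psmb5 shares 12.1% with Mir686 and Psmg3 9.68% with Gm26938.

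Within the cap, 4 of 18 subunits rose and 2 fell. Psmd8, a lid subunit that in yeast is the last to join, had 7.86, 8.27 and 8.58 shifted log2 CPM after tunicamycin, against 6.73, 7.08 and 7.20 after DMSO. The groups did not overlap, and the 2.33-fold rise (log2 fold change 1.22 ± 0.13, limma adjusted p = 1.57e-05) was the highest of the 49. The lid subunits Psmd11 and Psmd13 rose by 0.54 ± 0.11 and 0.49 ± 0.11 (limma adjusted p = 0.000998 and 0.00251), also without overlap of the groups. Of the 6 ATPases, Psmc5 rose by 0.41 ± 0.12 and Psmc4 had a log2 fold change of -0.49 ± 0.15 (limma adjusted p = 0.0105 and 0.0165). The Psmc4 value was -0.04 with adjusted p = 0.853 as deposited. Adrm1, a ubiquitin receptor of the cap, had 5.73, 5.90 and 6.48 after tunicamycin, against 6.08, 6.41 and 6.60 after DMSO. Its log2 fold change was -0.38 ± 0.15 (limma adjusted p = 0.0455), and 0.07 with adjusted p = 0.741 as deposited, so the direction rests on the scaling.

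In the core, 2 of 14 subunits rose, and both are catalytic. Psmb5, which carries the chymotrypsin-like site, rose by 0.58 ± 0.23 and Psmb6, which carries the caspase-like site, by 0.41 ± 0.11 (limma adjusted p = 0.0433 and 0.00661), each without overlap of the groups. For Psmb5, DMSO 2 stood at 3.50, and the other DMSO libraries at 4.85 to 4.97. Its log2 fold change was 0.35 without DMSO 2 (limma adjusted p = 0.00776), and the call was lost when any of 7 of the other 11 libraries was left out, under quantile normalization (adjusted p = 0.0609) and without the filter on low values. Psmb7, the third catalytic subunit, had a log2 fold change of -0.16 and was not called. None of the 7 alpha subunits was called, and none had an unadjusted p under 0.05. Without DMSO 2, the library with 23.4% mitochondrial reads, 19 genes were called higher and 5 lower. The share of all genes in that fit is not given here. The additional genes called were Psma4, Psmc3, Psmc6 and Psmg1 higher and Psme2 and Psmd3 lower, with Psma4 at 0.38 (limma adjusted p = 0.0263). Psma4 stood at 8.49 in DMSO 2 and at 6.59 to 6.85 in the other DMSO libraries.

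Of the 8 assembly chaperones, 4 rose and 0 fell. Psmg3, a chaperone of the alpha ring, had 2.68, 3.31 and 3.72 after tunicamycin, against 1.76, 2.46 and 2.75 after DMSO. The groups overlapped by a little, and the log2 fold change was 0.83 ± 0.23 (limma adjusted p = 0.00782). Its partner Psmg4 rose by 0.77 ± 0.22 and Psmg2, of the other alpha ring chaperone pair, by 0.69 ± 0.16 (limma adjusted p = 0.011 and 0.0028). Psmd5, a chaperone of the ATPase ring, had 5.19, 5.41 and 5.55 after tunicamycin, against 4.94, 4.99 and 5.12 after DMSO, with no overlap (log2 fold change 0.38 ± 0.10, limma adjusted p = 0.00594). Pomp, which helps close the core, had 6.01, 6.10 and 6.29 after tunicamycin, against 6.10, 6.13 and 6.91 after DMSO. It was not called, at -0.13 ± 0.14 (limma adjusted p = 0.449), and was 0.32 with adjusted p = 0.0256 as deposited. The other ATPase ring chaperones, Psmd9 at 0.09 ± 0.15 and Psmd10 at 0.15 ± 0.14, were not called (limma adjusted p = 0.611 and 0.405).

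Of the 5 activators and inhibitors, 1 fell and 1 rose. Psme1, a subunit of the PA28 cap that widens the peptide output of the core, had 4.64, 4.90 and 5.68 shifted log2 CPM after tunicamycin, against 6.19, 6.30 and 6.59 after DMSO. Every tunicamycin library lay below every DMSO library, and the log2 fold change was -1.34 ± 0.18 (limma adjusted p = 6.18e-05), a fall to 0.40 of the DMSO level. Psme2, which forms the same ring, had a log2 fold change of -0.24 ± 0.14 and was not called (limma adjusted p = 0.161). Psme3, the subunit of a nuclear PA28 ring, rose by 0.79 ± 0.16 (limma adjusted p = 0.00105). The activator Psme4 at 0.10 and the inhibitor Psmf1 at 0.21 were not called. Psmb8, Psmb9 and Psmb10, the immunoproteasome subunits that replace the catalytic beta subunits, were lower as well, with log2 fold changes of -2.05, -2.32 and -1.52, each without overlap of the groups. Of 9 macrophage markers, 8 were also lower after tunicamycin, and 5 of 5 endothelial markers. As deposited, the summed macrophage markers ranged from 7.73 to 8.24 log2 CPM after tunicamycin, against 7.86 to 9.67 after DMSO. The part of these markers in the Psme1 and immunoproteasome values was not tested. In bulk liver, fewer cells of a type and less RNA per cell cannot be told apart. Of the 6 hepatocyte markers, 4 were lower as well. Their sum as deposited was 14.81 to 16.20 after tunicamycin, against 16.49 to 17.02 after DMSO. Of 5 stellate markers 2 were lower, and of 4 cholangiocyte markers 0.

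Nfe2l1 rose by 0.50 ± 0.12 after tunicamycin (limma adjusted p = 0.00299). Its lowest, median and highest shifted log2 CPM were 7.61, 7.76 and 8.10, against 7.16, 7.30 and 7.45 after DMSO, with no overlap. Of the 44 genes in the lists of the pathway around the proteasome, 16 rose and 7 fell after tunicamycin, beside 24.1% and 29.2% of all genes. Of 10 genes that process or partner Nfe2l1, 3 rose and 1 fell. Syvn1 and Sel1l, the ubiquitin ligase complex of the ER membrane, rose by 3.32 ± 0.32 and 2.27 ± 0.21 (limma adjusted p = 6.41e-06 and 4.5e-06), and Mafk, a small Maf protein that pairs with Nfe2l1, by 2.35 ± 0.43. The protease Ddi2 and the glycanase Ngly1 were not called. Of 9 ubiquitin genes, activating enzymes and shuttles, 7 rose and 0 fell. Ubb and Rps27a, which encode ubiquitin, rose by 1.36 ± 0.22 and 1.23 ± 0.13, and Sqstm1, an autophagy receptor for ubiquitinated cargo, by 1.28 ± 0.17. Of 12 further p97 cofactors, 5 rose, among them Ubxn6 by 1.11 ± 0.18, Faf1 by 1.01 ± 0.19 and Ubxn4 by 0.93 ± 0.23, and 2 fell. Of 10 measured factors that bind or regulate the proteasome, Zfand2a rose by 0.53 ± 0.19 and the deubiquitinase Usp14 had a log2 fold change of -0.84 ± 0.19 (limma adjusted p = 0.0314 and 0.0028).

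**Figure D2:**
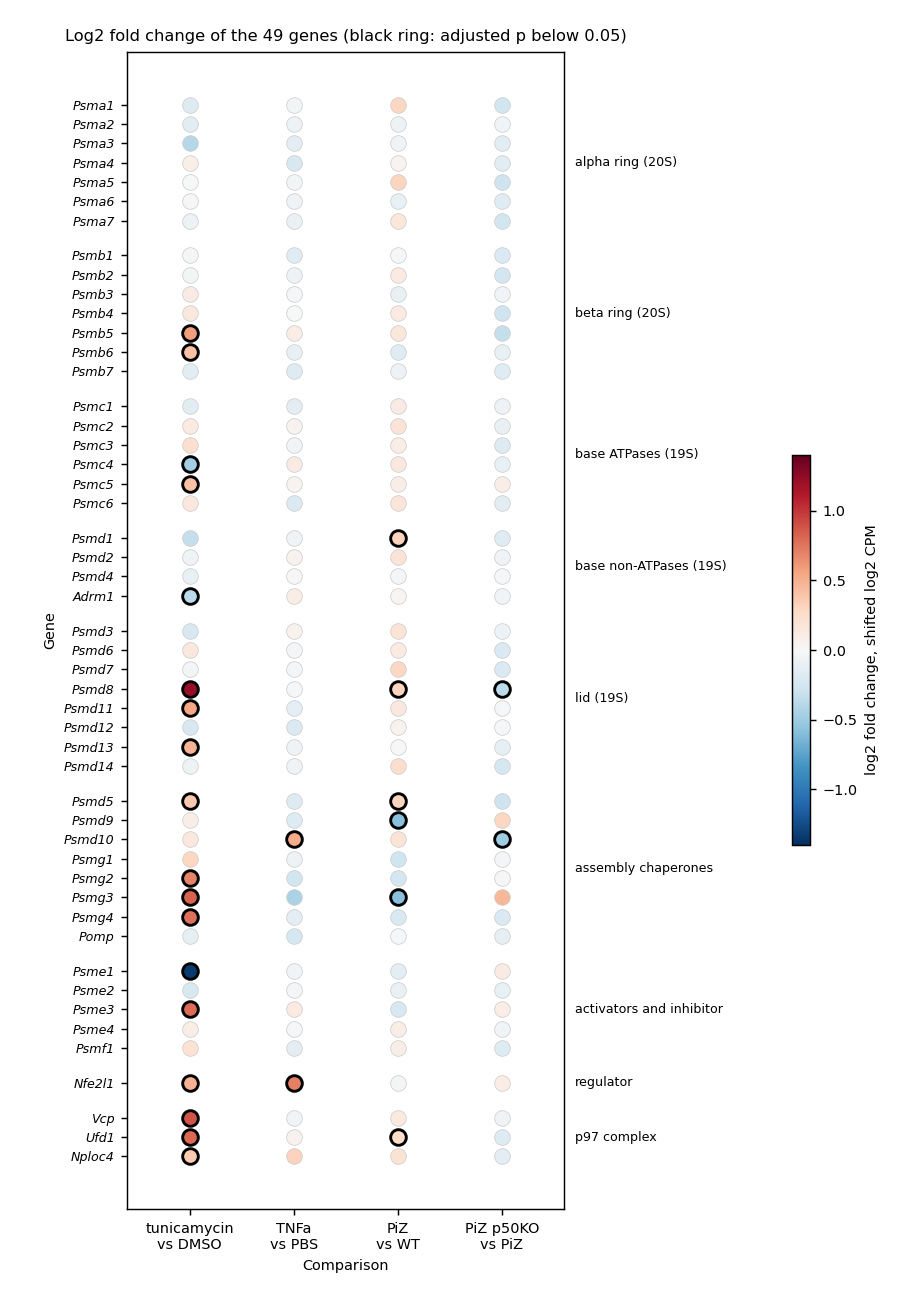
Log2 fold change (colour scale, shifted log2 CPM) of the 49 genes, by role down the y axis, in the 4 comparisons along the x axis; a black ring marks a limma adjusted p below 0.05. Tunicamycin has 18 rings, with Psmd8 at 1.22 and Psme1 at -1.34, and the other comparisons have 2 to 6.

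At 2 hours after TNFa, 2 of the 49 genes were called, and 0 of the 32 subunits of the 26S. Nfe2l1, the activator of proteasome genes, was higher, and so was Psmd10 (gankyrin), a chaperone of the ATPase ring. Among all genes tested, 7.42% were higher and 6.18% lower. None of the 32 subunits had an unadjusted p under 0.05, and their fold changes lay between -0.24 and 0.12 with a median of -0.06. The values as deposited called the same 2 genes higher and 0 lower, beside 7.63% and 4.05% of all genes. So did the fit with WT PBS 2, beside 4.08% and 3.91%. The quantile scaling also called these 2, beside 6.91% and 5.02%, as did the trimmed-mean scaling, beside 8.29% and 5.07%.

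Nfe2l1 had a lowest, median and highest shifted log2 CPM of 6.62, 7.30 and 7.53 after TNFa, against 6.83, 6.32, 6.42, 6.56 and 6.33 in the 5 PBS libraries. The groups overlapped through 1 library of TNFa, number 4, at 6.62, while the other 5 lay between 7.08 and 7.53, above every PBS library. The log2 fold change was 0.71 ± 0.14, a 1.64-fold rise (limma adjusted p = 0.00126), and was 0.83 without library 4. That library also stood apart for Nfkb1, which responds to TNFa, at 4.77 log2 CPM as deposited, where its group otherwise had 6.57 to 6.95, and PBS 3.92 to 4.34. Psmd10 had 3.31, 3.75 and 4.01 after TNFa, against 3.19, 2.85, 3.65, 2.97 and 3.30 in PBS. Library 4 was again the lowest of TNFa, and the groups overlapped. The log2 fold change was 0.52 ± 0.16 (limma adjusted p = 0.0269), and leaving out any of 6 of the 11 libraries in turn ended the call. In both groups the highest Psmd10 value was that of the library with the most mitochondrial reads, and the part of these in the result was not tested.

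The 3 genes of the p97 complex were not called after TNFa. Nploc4 had 6.59, 6.82 and 6.95 shifted log2 CPM after TNFa, against 6.50, 6.80, 6.21, 6.54 and 6.43 in PBS (log2 fold change 0.32 ± 0.13, limma adjusted p = 0.119). Psmg3 had 1.37, 1.91 and 2.11 after TNFa, against 2.71, 2.20, 2.14, 2.23 and 1.95 in PBS. Its log2 fold change of -0.44 ± 0.16 did not pass (limma adjusted p = 0.0726), but without TNFa library 4 it was -0.50 with adjusted p = 0.0355. Of the 44 pathway genes, 4 rose and 0 fell, beside 7.42% and 6.18% of all genes. Among the partners of Nfe2l1, 3 of 10 rose: the small Maf genes Maff by 2.75 ± 0.54 and Mafk by 1.11 ± 0.20, and the related factor Nfe2l2 by 1.32 ± 0.20 (limma adjusted p = 0.0014, 0.000494 and 0.000129). Of the 9 ubiquitin genes, activating enzymes and shuttles, 1 was called, Sqstm1, which rose by 0.55 ± 0.18 (limma adjusted p = 0.0386). Pomp had 6.00, 6.13 and 6.27 after TNFa, against 6.27, 6.07, 6.74, 6.34 and 6.49 in PBS, and was not called, nor was Adrm1 with 6.46, 6.60 and 6.82 after TNFa, against 6.57, 6.45, 6.32, 6.64 and 6.60 in PBS. The immunoproteasome subunits Psmb8, Psmb9 and Psmb10 were at 0.16, 0.41 and 0.22 and were not called. Of the 10 proteasome-bound factors and 12 further p97 cofactors, 0 were called, with the greatest values in Zfand5 at 0.24 ± 0.09 and Yod1 at 0.62 ± 0.27 (limma adjusted p = 0.0785 and 0.143). Of the 4 neutrophil markers tested, 3 were higher after TNFa. As deposited, the sum of the 8 neutrophil markers ranged from 2.90 to 6.77 log2 CPM after TNFa, against 0.67 to 4.23 in PBS. Of 4 cholangiocyte markers 2 were higher, of 9 macrophage markers 1 was higher, of 5 endothelial markers 1 was higher and 2 lower, of 5 stellate markers 1 was lower, and of 6 hepatocyte markers 0 were called. Their part in these values was not tested.

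**Figure D3:**
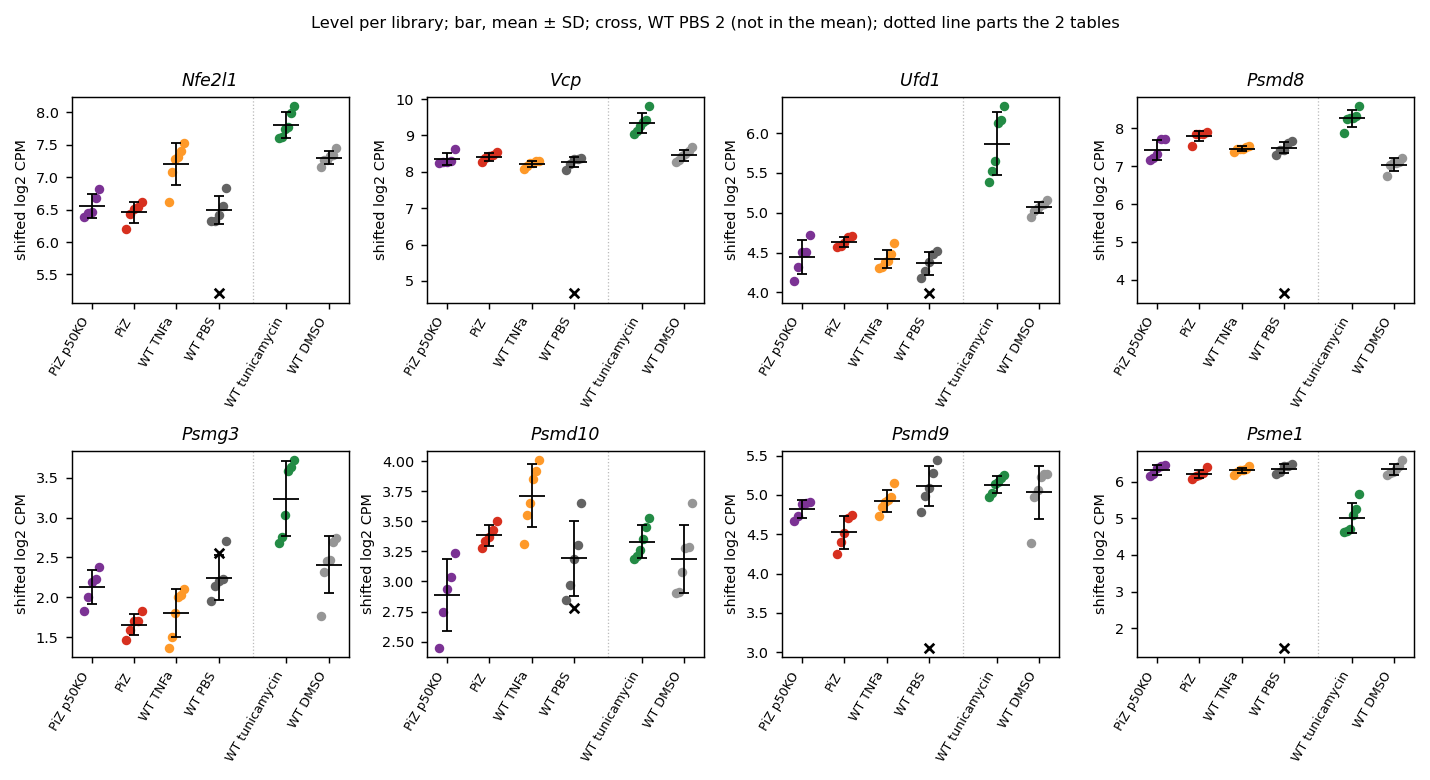
Shifted log2 CPM (y axis) of 8 of the genes in each library, by group along the x axis; points are libraries, bars mean and SD, the cross is WT PBS 2, and the dotted line separates the 2 tables. Vcp, Ufd1 and Psmd8 after tunicamycin lie above every DMSO library, and 1 TNFa library lies apart in Nfe2l1 at 6.62.

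In PiZ liver, 4 of the 49 genes were higher and 2 lower than in WT PBS liver after the shift, shares below those of all genes, of which 17.4% were higher and 22.5% lower. The higher ones were Psmd1, Psmd8, Psmd5 and Ufd1, by 0.27 to 0.32 on the log2 scale, and the lower ones the chaperones Psmd9 and Psmg3. As deposited, 43 were higher and 0 lower, beside 45.6% and 6.19% of all genes. The median of the 49 was 0.10 after the shift and 0.59 as deposited, that is 0.19 above the median of all genes on both scales. Quantile normalization gave 23 higher and 2 lower, beside 18.4% and 20.8% of all genes, and a median 0.39 above that of all genes, so whether the share exceeds that of all genes rests on the scaling. Psmd1, Psmd5, Psmd8 and Ufd1 were called higher under all 4 scalings. With WT PBS 2 in the fit, 0 were higher and 1, Psmg3, was lower, beside 7.6% and 5.04% of all genes.

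Psmd8 had 7.85, 7.83, 7.85, 7.54 and 7.89 shifted log2 CPM in PiZ, against 7.42, 7.29, 7.43, 7.60 and 7.66 in WT. All but PiZ 4 lay above the WT libraries. Its log2 fold change was 0.31 ± 0.11 (limma adjusted p = 0.0313). Psmd1, the scaffold of the cap base, had 6.92, 6.85, 6.96, 7.04 and 6.73 in PiZ, against 6.67, 6.24, 6.78, 6.55 and 6.63 in WT. PiZ 5 lay within the WT range, and the log2 fold change was 0.32 ± 0.12 (limma adjusted p = 0.041). Psmd5 had 5.56, 5.71, 5.55, 5.36 and 5.55 in PiZ, against 5.24, 5.11, 5.30, 5.25 and 5.27 in WT, with no overlap (log2 fold change 0.31 ± 0.12, limma adjusted p = 0.0363). Ufd1 had 4.71, 4.58, 4.70, 4.62 and 4.57 in PiZ, against 4.18, 4.38, 4.27, 4.52 and 4.48 in WT, also with no overlap (log2 fold change 0.27 ± 0.10, limma adjusted p = 0.0419). Each of these 4 calls was lost when any of 7 or 8 of the 10 libraries was left out in turn, with a highest adjusted p of 0.126 for Psmd1. The groups of 3 genes did not overlap with PiZ higher and those of 2 with PiZ lower, beside 14.6% and 15.8% of all genes.

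Psmd9, a chaperone of the ATPase ring, had 4.70, 4.52, 4.40, 4.25 and 4.75 in PiZ, against 4.99, 5.44, 4.78, 5.28 and 5.09 in WT. Every PiZ library lay below every WT library, and the log2 fold change was -0.59 ± 0.12 (limma adjusted p = 0.000577). Psmg3 had 1.70, 1.83, 1.59, 1.47 and 1.70 in PiZ, against 2.71, 2.20, 2.14, 2.23 and 1.95 in WT, again with no overlap (log2 fold change -0.59 ± 0.17, limma adjusted p = 0.00766). Both calls held with any 1 library left out. As deposited, both were at -0.10 and not called (adjusted p = 0.627 and 0.683). Of the exon bases of Psmd9, 25.5% lie opposite Gm26745, and 9.68% of those of Psmg3 are shared with Gm26938 on the same strand, so reads of the pairs may not be told apart.

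Nfe2l1, the activator of proteasome genes, was not called in PiZ liver. It had 6.43, 6.62, 6.54, 6.20 and 6.51 in PiZ, against 6.83, 6.32, 6.42, 6.56 and 6.33 in WT, with broad overlap. The log2 fold change was -0.03 ± 0.15 (limma adjusted p = 0.884), and 0.46 with adjusted p = 0.0356 as deposited. Vcp had 8.26, 8.37, 8.55, 8.44 and 8.45 in PiZ, against 8.38, 8.04, 8.36, 8.22 and 8.35 in WT (log2 fold change 0.14 ± 0.09, limma adjusted p = 0.236). Psme1 had 6.19, 6.08, 6.16, 6.41 and 6.23 in PiZ, against 6.28, 6.21, 6.42, 6.49 and 6.42 in WT. It was not called after the shift, and was 0.34 higher with limma adjusted p = 0.00126 as deposited. Pomp, Adrm1 and Nploc4 were not called either. Pomp had 6.39, 6.15, 6.26, 6.74 and 6.26 in PiZ, against 6.27, 6.07, 6.74, 6.34 and 6.49 in WT, and was at -0.02 ± 0.16 after the shift but 0.47 with adjusted p = 0.00275 as deposited. Adrm1 had 6.64, 6.71, 6.66, 6.14 and 6.59 in PiZ, against 6.57, 6.45, 6.32, 6.64 and 6.60 in WT (log2 fold change 0.03 ± 0.12). For Pomp the highest PiZ and WT libraries were number 4 of each, and those 2 have the most mitochondrial reads of their groups. Nploc4 had 6.71, 6.92, 6.83, 6.19 and 6.81 in PiZ, against 6.50, 6.80, 6.21, 6.54 and 6.43 in WT (log2 fold change 0.20 ± 0.14). For Nploc4, PiZ 4 lay below every WT library, PiZ 2, 3 and 5 above every one, and PiZ 1 above all but 1. Over the role groups, the 6 ATPases lay between 0.09 and 0.19, the 14 core subunits between -0.17 and 0.31, and 16 of the 18 cap subunits were above 0.

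Set directly against the TNFa libraries, PiZ liver had 8 of the 49 genes higher and 3 lower, beside 20.7% and 22.8% of all genes. As deposited the counts were 38 and 0, beside 47.7% and 8.11%, and after quantile normalization 28 and 2, beside 21.3% in each direction. Of the 8 lid subunits 4 were higher and all 8 had values above 0, with Psmd8 at 0.33 ± 0.11 (limma adjusted p = 0.0156), and the chaperone Psmd5 was higher by 0.49 ± 0.11. The lid calls of Psmd7 and Psmd14 were each lost without any of 6 of the 11 libraries (limma adjusted p up to 0.0997 and 0.0696). That of Psmd11 was lost without 1 library, and that of Psmd8 was kept throughout. Psmd9 and Psme3 were lower after the shift, at -0.40 ± 0.12 and -0.36 ± 0.12, and stood at 0.03 and 0.07 as deposited. The other lower gene was Nfe2l1. PiZ liver had less Nfe2l1, with a log2 fold change of -0.74 ± 0.14 (limma adjusted p = 0.000182), which was -0.32 with limma adjusted p = 0.118 as deposited.

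Of the 44 pathway genes, 9 rose and 7 fell in PiZ liver, beside 17.4% and 22.5% of all genes. The immunoproteasome subunits Psmb8 and Psmb9 rose by 0.47 ± 0.14 and 0.82 ± 0.20 (limma adjusted p = 0.00965 and 0.00294), without overlap of the groups, while Psmb10 was at -0.17. Of the 9 macrophage markers 8 were higher in PiZ. Their sum as deposited was 9.26 to 9.85 log2 CPM in PiZ, against 7.64 to 7.94 in WT. Of 5 stellate markers 4 were higher, with a sum as deposited of 9.0 to 9.54 in PiZ, against 6.70 to 6.86 in WT. None of the 8 lymphocyte markers passed the filter on low values, and their sum as deposited was 1.96 to 2.59 in PiZ, against -0.02 to 1.35 in WT. Of 4 cholangiocyte markers 2 were higher, of 5 endothelial markers 1, and of 6 hepatocyte markers 1 was higher and 4 were lower. The hepatocyte sums as deposited overlapped, at 16.21 to 16.65 in PiZ (median 16.54), against 16.37 to 16.8 in WT (median 16.52). The part of these markers in the values of the proteasome and pathway genes was not tested. Of the 9 ubiquitin genes, activating enzymes and shuttles, 3 rose and 2 fell. Sqstm1 rose by 1.03 ± 0.18 and the shuttle Ubqln2 by 0.76 ± 0.15, while the activating enzyme Uba1 had a log2 fold change of -0.38 ± 0.07. Of the 10 proteasome-bound factors, 2 rose, Zfand2a by 0.71 ± 0.16 and Zfand5 by 0.45 ± 0.09, both zinc finger proteins that bind the proteasome. Among Nfe2l1 partners, Mafk rose by 0.94 ± 0.20 and 2 fell, the protease Ddi2 at -0.40 ± 0.14 and the ligase subunit Btrc at -0.39 ± 0.12. Of the 12 further p97 cofactors, 1 rose and 3 fell, Ube4b at -0.60 ± 0.13, Aspscr1 at -0.53 ± 0.15 and Zfand1 at -0.51 ± 0.15.

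The libraries labelled PiZ p50KO were first checked for Nfkb1, the gene of p50. It stood at 4.51, 4.86, 3.31, 3.74 and 3.37 log2 CPM as deposited in PiZ p50KO, against 5.58, 5.45, 5.00, 4.62 and 5.12 in PiZ. Libraries 1 and 2 of PiZ p50KO lay above the other 3, and library 2 lay above PiZ 4. The deleted part of the gene is not given in the sources used here. In PiZ p50KO, 0 of the 49 proteasome genes were higher and 2 were lower than in PiZ, beside 9.84% and 9.11% of all genes. As deposited the counts were 0 and 26, beside 3.36% and 21.6%, and after quantile normalization 1 and 11, beside 9.48% and 10.4%. At an unadjusted p under 0.05, 2 were higher and 4 lower, and the share of all genes at that threshold was not counted.

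Psmd10 had 2.75, 2.45, 3.24, 3.04 and 2.94 shifted log2 CPM in PiZ p50KO, against 3.37, 3.28, 3.43, 3.50 and 3.34 in PiZ. The groups did not overlap, with libraries 1 and 2 the lowest. The log2 fold change was -0.50 ± 0.16 (limma adjusted p = 0.0348). Psmd8 had 7.21, 7.15, 7.31, 7.71 and 7.71 in PiZ p50KO, against 7.85, 7.83, 7.85, 7.54 and 7.89 in PiZ. Here 3 of the 5 PiZ p50KO libraries lay below every PiZ library (log2 fold change -0.37 ± 0.11, limma adjusted p = 0.0236). Without PiZ p50KO libraries 1 and 2, the values were -0.31 for Psmd10 and -0.21 for Psmd8 and 0 genes were called (limma adjusted p = 0.312 and 0.28). PiZ p50KO libraries were set against the same PiZ libraries that were set against WT, so the fall of Psmd8 here and its rise in PiZ share those 5 libraries.

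For the 2 chaperones that were lower in PiZ, the differences between PiZ p50KO and PiZ did not pass with all 5 libraries of each group and the median shift. Psmd9 had 4.89, 4.73, 4.67, 4.90 and 4.91 in PiZ p50KO, against 4.70, 4.52, 4.40, 4.25 and 4.75 in PiZ (log2 fold change 0.30 ± 0.12, limma adjusted p = 0.0971). Psmg3 had 2.38, 1.83, 2.19, 2.23 and 2.01 in PiZ p50KO, against 1.70, 1.83, 1.59, 1.47 and 1.70 in PiZ (log2 fold change 0.47 ± 0.17, limma adjusted p = 0.0544). Psmg3 did pass without PiZ p50KO 2, at 0.54 (limma adjusted p = 0.0416), and after quantile normalization, at 0.63 (limma adjusted p = 0.00975). Nfe2l1 was at 0.10 ± 0.15, Vcp at -0.06 ± 0.09 and Ufd1 at -0.19 ± 0.10, none of them called. Pomp had 6.20, 5.73, 6.91, 6.17 and 6.16 in PiZ p50KO, Adrm1 had 6.40, 6.18, 6.42, 6.78 and 6.72, and Nploc4 had 6.24, 6.43, 6.51, 6.77 and 6.77, each overlapping with PiZ and not called. Their log2 fold changes against PiZ were -0.13 ± 0.16, -0.05 ± 0.12 and -0.15 ± 0.14. Of the 14 core subunits all had values below 0, between -0.33 and -0.05, with 0 called and 1 at an unadjusted p under 0.05. Against WT PBS, 0 of the 49 were called higher or lower in PiZ p50KO, beside 3.2% and 4.33% of all genes. As deposited, 6 were higher and 0 lower, beside 10.5% and 1.14%. The immunoproteasome subunit Psmb8 fell in PiZ p50KO relative to PiZ, by 0.51 on the log2 scale (limma adjusted p = 0.0124), while Psmb9 at -0.58 did not pass (limma adjusted p = 0.0528). All 9 macrophage markers were lower. Their sum as deposited was 8.25 to 9.05 log2 CPM in PiZ p50KO, against 9.26 to 9.85 in PiZ. That of the 8 lymphocyte markers, none of which passed the filter, was 0.95 to 1.8, against 1.96 to 2.59 in PiZ. Of 5 stellate markers 4 were lower, with a sum as deposited of 7.27 to 8.24 in PiZ p50KO, against 9.0 to 9.54 in PiZ. Of 4 cholangiocyte markers 2 were lower, and of 6 hepatocyte markers 4 were higher. The hepatocyte sums as deposited overlapped, at 16.39 to 16.96 in PiZ p50KO, against 16.21 to 16.65 in PiZ. The part of these markers was not tested. Of the 9 ubiquitin genes, activating enzymes and shuttles, 0 rose and 1 fell, Sqstm1 at -0.71 ± 0.18. Of the 44 pathway genes, 1 rose and 4 fell, beside 9.84% and 9.11% of all genes. Ube4b rose by 0.46 ± 0.13, and Mafk and Zfand5 fell, at -0.84 ± 0.20 and -0.29 ± 0.09.

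The mean over the 32 subunits of the 26S was 6.43 ± 0.27 shifted log2 CPM in PiZ p50KO (SD, n = 5), 6.58 ± 0.05 in PiZ (n = 5), 6.43 ± 0.07 after TNFa (n = 6) and 6.48 ± 0.11 in WT PBS (n = 5). In the second table it was 6.41 ± 0.06 after tunicamycin and 6.37 ± 0.07 after DMSO (SD, n = 6 each). The spread in PiZ p50KO came from libraries 1 and 2, at 6.28 and 6.03, while the other 3 lay between 6.55 and 6.68. As deposited, the mean was 6.89 ± 0.17 in PiZ and 6.29 ± 0.05 in WT PBS, and 6.64 ± 0.16 after tunicamycin and 6.14 ± 0.15 after DMSO, without overlap in either pair.

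**Figure D4:**
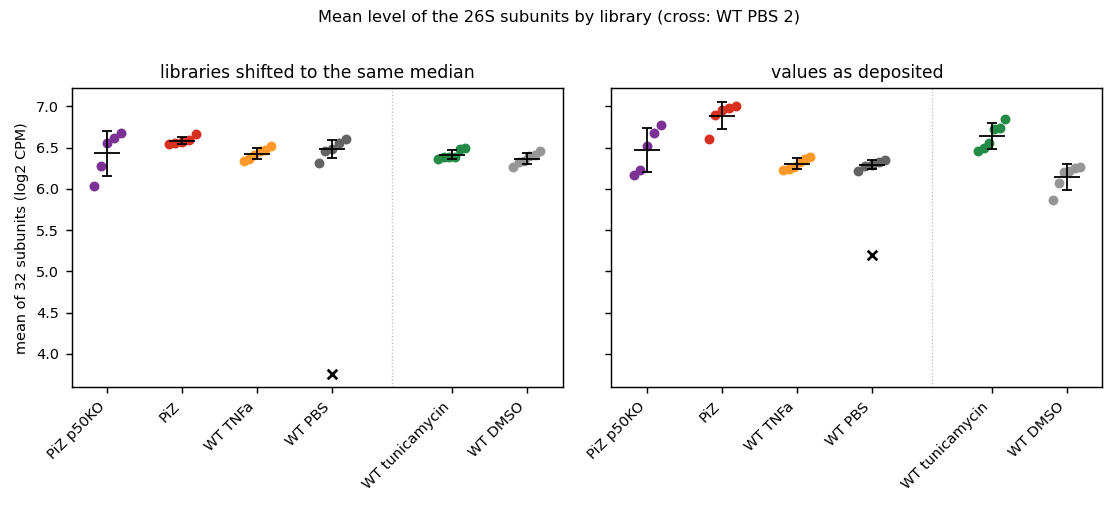
Mean log2 CPM over the 32 subunits of the 26S (y axis) in each library by group (x axis), with libraries shifted to the same median (left) and as deposited (right); points are libraries, bars mean and SD, the cross is WT PBS 2. PiZ and WT PBS means are 6.58 and 6.48 on the left, and 6.89 and 6.29 on the right.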

How the data were processed

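The authors deposited 2 tables of log2 CPM, of 22 and 12 libraries, with a small prior count. That they carry no scaling between libraries, on which the depths also rest, was assumed and not tested. Per the submitters' processing notes, bcl2fastq, DRAGEN, STAR, Subread featureCounts and edgeR were used with mouse build GRCm38. Strand use in counting is not given in the sources used here. Depth per library was read from the steps between low values, which were whole multiples of 1 read within 0.1.

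Each library was shifted to the same median over the genes tested, those that exceeded 0 log2 CPM (1 CPM) in 5 or more of the first table's libraries or 6 or more of the second's. Because the values are log2 CPM and not counts, the moderated linear models of limma 3.58.1 (R 4.3.3, eBayes, trend on) were used, with all groups of a table in 1 fit, WT PBS 2 left out, and Benjamini-Hochberg adjustment over all genes tested. The procedure was tested on simulated data. Groups came from the sample titles. For 3 tunicamycin libraries the labels give the group but not the number. Replicates are separate libraries. The labels do not say in words that each is a separate animal, so p-values measure the spread between these libraries. Same-numbered libraries did not deviate together in every pair of any comparison, so the numbers were not used as pairs.

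Members, gene lists and tests were chosen with earlier results of these data known. Per-library values, or the lowest, median and highest of a group, are given for Nfe2l1, Vcp, Ufd1, Nploc4, Pomp and Adrm1. The same holds, in each of the 4 main comparisons, for up to 4 genes past the threshold with the greatest change. Exceptions are Vcp and Ufd1 after TNFa, and Nfe2l1, Vcp and Ufd1 in PiZ p50KO, which have fold changes only there. Lists of pathway genes give up to 3 genes past the threshold, or the 1 with the greatest change. The alternatives were other scalings, filters, a pseudocount, a fit of the 2 groups alone, robust moderation, WT PBS 2 included and libraries left out. Some genes of the lists are not reported here. Exon lengths and overlaps came from GENCODE M21.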

Additional observations from a re-analysis of the deposited data

Results flagged for a closer look

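Per-library levels of 13 genes, and the mean over the 32 subunits of the 26S, were screened in each of the 6 groups of 5 or 6 libraries, 84 screens in all, for a single library far from the rest by Dixon's test, and 7 were found. Chance finds about 1 in 20 groups. All values are shifted log2 CPM. In PiZ 4, a library with 19.9% mitochondrial reads, 3 genes lay below the other 4 PiZ libraries: Psmd8 at 7.54 (others 7.83 to 7.89), Nploc4 at 6.19 (others 6.71 to 6.92) and Adrm1 at 6.14 (others 6.59 to 6.71). In DMSO 2, with 23.4% mitochondrial reads, Pomp lay above the other DMSO libraries at 6.91 (others 6.10 to 6.15) and Psmd9 below them at 4.39 (others 4.97 to 5.27). In PiZ p50KO 3, with 19.4% mitochondrial reads, Vcp lay above the others at 8.64 (others 8.25 to 8.31). In 1 tunicamycin library without a number, with 4.3% mitochondrial reads, Psmd1 lay above the others at 6.94 (others 6.44 to 6.54).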

How the results depend on the processing

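Counts of genes called, of 49, moved with the scaling. With values as deposited they were 43 higher and 0 lower in PiZ against WT, 26 lower in PiZ p50KO against PiZ, 36 higher and 1 lower after tunicamycin, 6 higher in PiZ p50KO against WT and 38 higher and 0 lower in PiZ against TNFa, and the mean of the 26S subunits was 6.89 in PiZ, 6.30 after TNFa and 6.29 in WT PBS, and 6.64 after tunicamycin and 6.14 after DMSO. With quantile normalization they were 23 higher in PiZ (18.4% of all genes) and 28 higher in PiZ against TNFa (21.3%). In PiZ p50KO against PiZ there were 1 higher and 11 lower (9.48% and 10.4%), and against WT 1 higher (2.25%). The trimmed-mean shift gave 9 higher in PiZ, beside 19.5% of all genes. A pseudocount of 1 CPM gave 7 higher in PiZ and 1 higher in PiZ p50KO against PiZ. Without a filter there were 0 higher in PiZ, 1 after TNFa, 0 lower in PiZ p50KO and 3 higher in PiZ against TNFa. A fit of the 2 groups alone gave 1 higher after TNFa and 0 lower in PiZ p50KO. With WT PBS 2 there were 0 higher and 1 lower in PiZ, 0 lower in PiZ p50KO against PiZ, and 0 higher and 1 lower in PiZ against TNFa. With WT PBS 2 and values as deposited there were 33 higher and 0 lower in PiZ, beside 15.3% and 2.21% of all genes. There was 1 higher after TNFa (2.21% of all genes) and 1 lower in PiZ p50KO against PiZ (3.02%). In PiZ against TNFa there were 21 higher and 0 lower (22.3% and 3.15%). Without PiZ p50KO libraries 1 and 2, of higher Nfkb1, 0 were lower against PiZ and 1, Psmc5, was higher against WT. Without the 4 libraries over 19% mitochondrial reads, an alternative chosen after seeing the data, there were 4 lower in PiZ p50KO against PiZ, 5 lower after tunicamycin and 5 lower in PiZ against TNFa. Ufd1 in PiZ lost its call there, at 0.25 (adjusted p = 0.065). For the pseudocount, the filter, the 2 groups alone and the fits with libraries left out, here and below, the share of all genes is not given. The cause of these moves was not tested.

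Directions that turned with values as deposited were those of Nfe2l1 at 0.46, Pomp at 0.47 (0.69 with WT PBS 2 as well) and Psme1 at 0.34 in PiZ, Adrm1 at 0.07 and Pomp at 0.32 after tunicamycin, and Psmd9 at 0.03 and Psme3 at 0.07 in PiZ against TNFa, the last 2 also with WT PBS 2. A replicate block was also fitted, although the numbers do not justify pairs (correlations of same-numbered libraries from -0.23 to 0.56). With it, 7 were higher in PiZ (16.7% of all genes) and 1, Psmg3, was higher in PiZ p50KO against PiZ (9.18%). After tunicamycin 10 were higher and 2 lower in a fit with the block that could use only the 6 libraries that share a number, so the block and the number of libraries changed together.

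Leaving out 1 library at a time, the counts ranged from 0 to 6 higher and 2 to 3 lower in PiZ, 1 to 2 higher and 0 to 1 lower after TNFa, 0 to 1 higher and 0 to 3 lower in PiZ p50KO against PiZ, 13 to 19 higher and 2 to 5 lower after tunicamycin, 0 throughout in PiZ p50KO against WT, and 4 to 8 higher and 2 to 4 lower in PiZ against TNFa. Without PiZ 1, 2 or 3 or WT PBS 3, 0 were higher in PiZ, and 1 or 2 without PiZ 5 or WT PBS 1, 5 or 6. Without PiZ p50KO 1 or 2 or PiZ 1, 2, 3 or 5, 0 were lower in PiZ p50KO. Psmd10 after TNFa lost its call without TNFa 3, 5 or 6 or PBS 1, 3 or 5 (adjusted p up to 0.0812). After tunicamycin, Adrm1, Nploc4 and Psmb5 lost theirs without 9, 8 and 7 of the 12 libraries (adjusted p up to 0.106, 0.0786 and 0.0817), and the 15 others kept theirs.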

Other observations

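Several of the 49 genes had their highest level of a group in the library with the most mitochondrial reads of that group. This held in all 6 groups for 4 genes (Psma4, Psmc1, Psmd7 and Psmd10), in 5 groups for 7, among them Pomp and Psmd1, and in 0 groups for 18. Psma4, a subunit of the alpha ring, had 7.66 shifted log2 CPM in PiZ p50KO 3, 7.69 in PiZ 4, 7.06 in TNFa 6, 7.50 in WT PBS 4, 7.63 in tunicamycin 1 and 8.49 in DMSO 2. Pomp had 6.91 in PiZ p50KO 3, 6.74 in PiZ 4, 6.74 in WT PBS 4, 6.29 in tunicamycin 1 and 6.91 in DMSO 2, and the exception was TNFa, where TNFa 6 had 6.21 and the highest was TNFa 3 at 6.27. The relation was noticed in these data and was not tested.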
